A study of Mus musculus with 4 samples.

Results

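Transcripts of the T cell receptor and of its CD3 partners were followed through the lymphocytes of a mouse tumour. The genes were the γ chain V genes Tcrg-V1 and Tcrg-V6, the constant genes Trdc (δ), Trac (α), Trbc1 and Trbc2 (β), and the CD3 subunit genes Cd3d, Cd3e and Cd3g. They were chosen by name, as the symbols of these 9 genes among the 32285 genes of the expression matrices, and all 9 were found. The comparison set γδ against αβ receptor transcripts in T17-like, other T-like and natural killer (NK)-like cells, and asked what share of NK-like cells held Trbc or CD3 transcripts.

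A T cell recognises its target with a receptor of paired chains, α with β or γ with δ. Each chain gene is put together from V, (D) and J segments in the developing T cell and is read into a constant gene, so Trac and Trbc mark αβ chains and Trdc and the Tcrg-C genes mark γδ chains, although constant genes can also be transcribed without rearrangement. The chains reach the cell surface only together with CD3δ, CD3ε and CD3γ and the ζ chain encoded by Cd247. Among mouse γδ T cells, those with a Vγ6 chain (Tcrg-V6) are known for producing interleukin-17 in tissues and tumours, while Tcrg-V1 marks a different γδ population. NK cells belong to the lymphoid lineage but do not rearrange a receptor, and they signal through chains such as Fcer1g, Tyrobp and ζ.

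Single-cell 5′ expression libraries were made from tumour-infiltrating lymphocytes of C57BL/6 females aged 12 to 16 weeks that carried MC38 tumours, grown under the skin from a mouse colon carcinoma line. The Blimp-1 KO group was Prdm1 f/f CD19cre, in which a cre active in B cells deletes Prdm1, the gene of the transcription factor Blimp-1. The Ctrl group was Prdm1 f/f without cre. For each genotype, tumours of 11 recipients were taken at day 18 and made into 1 library from sorted viable B220+ and CD138+ cells. T and NK cells were thus not sorted by a T or NK cell marker. They are also not the cells in which that cre is meant to act. The mixing of the sorted cells can set every share of a cell type. The deposited files differ in date stamp by genotype, so batch and genotype cannot be told apart. With 1 library per genotype there was no replicate check and no test. All intervals below are 95% intervals that cover counting error only.

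The Blimp-1 KO library held 897 barcodes and 5463434 UMIs, and the Ctrl library held 816 barcodes and 6976374 UMIs. UMIs of T cell receptor constant genes numbered 945 in the Blimp-1 KO library and 1006 in the Ctrl library. The libraries shared 3 barcode sequences. Cells were clustered without any T cell receptor or CD3 gene, so the genes described here did not place the cells. The T17-like cluster (36 Blimp-1 KO and 34 Ctrl cells) detected 20 of 21 markers listed for interleukin-17-producing γδ T cells, and was led by Cd163l1, Actn2 and Tmem176a. The other T-like cluster (34 Blimp-1 KO and 35 Ctrl cells) was led by Penk and Cd8a, and the NK-like cells (230 Blimp-1 KO and 140 Ctrl cells) came from 3 clusters. A cluster led by Gzmg, Gzmd and Gzme (77 Blimp-1 KO and 18 Ctrl cells) stayed unnamed, and its median depth was 3020 UMIs per cell in the Blimp-1 KO library and 22910.5 UMIs in the Ctrl library. Its best marker list was that of NK cells (mean log2 level 1.77, 17 markers detected), with 0 of them among its 10 leading genes. At resolution 0.5 a cluster led by Gzmd and Gzme was named NK-like. The NK-like values below leave the unnamed cluster out. Of the genes that define the sorted cells, Sdc1, which encodes CD138, had UMIs in 14 of 36 Blimp-1 KO and 19 of 34 Ctrl T17-like cells. Sdc1 stood at 174 CPM (109.2 to 263.9) in Blimp-1 KO and 201 CPM (139.4 to 281.3) in Ctrl T17-like cells. In Ctrl plasma-like cells it stood at 109 CPM (89.8 to 131.9). Whether the CD138 gate shaped the makeup of the T17-like class was not tested. Sdc1 had no UMI in the NK-like cells of either library, and the B cell gene Cd79a had UMIs in 2 Blimp-1 KO and 1 Ctrl NK-like cells. B220 is an isoform of the Ptprc protein and cannot be read from gene counts. Prdm1 stood at 6.86 CPM (3.65 to 11.7) in Blimp-1 KO and 7.25 CPM (3.62 to 13.0) in Ctrl NK-like cells. In B-like cells it had 16 UMIs in the Blimp-1 KO library and 1 in the Ctrl library. The deleted exons are not given in the sources used here, so 5′ counts do not check the deletion.

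The CD3 genes lie together on chromosome 9 (GRCm38.p6), with Cd3g at 44969572 to 44980431, Cd3d at 44981769 to 44987052 and Cd3e at 44998735 to 45009663. Cd3g and Cd3d are read away from each other, and 1337 bases separate their annotated ends. Windows of 200 bases that end at the start used in the RefSeq promoter table (GRCm38.p6) are shown because these 3 genes were high in the same classes. That start is not the outer end of the annotated gene for Cd3d and Cd3e, whose windows reach 17 and 52 bases into the annotated gene at their 3′ end, while the Cd3g window lies outside its gene. Each runs 5′ to 3′ on the gene's own strand. Capitals mark matches, on either strand, to motifs for factors of the T lineage, namely an E-box (CANNTG), an Ets motif (AGGAAG), a Runx motif (TGTGGT) and a TCF motif (CTTTGA).
Cd3d, chr9:44981586-44981785, plus strand: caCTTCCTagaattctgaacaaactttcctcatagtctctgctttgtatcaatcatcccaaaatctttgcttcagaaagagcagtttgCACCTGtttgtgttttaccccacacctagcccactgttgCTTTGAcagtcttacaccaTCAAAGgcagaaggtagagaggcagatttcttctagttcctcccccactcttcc
Cd3e, chr9:45009612-45009811, minus strand: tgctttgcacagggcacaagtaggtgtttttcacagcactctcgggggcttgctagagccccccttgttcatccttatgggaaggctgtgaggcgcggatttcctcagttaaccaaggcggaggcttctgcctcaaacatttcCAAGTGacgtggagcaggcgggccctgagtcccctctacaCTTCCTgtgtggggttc
Cd3g, chr9:44980432-44980631, minus strand: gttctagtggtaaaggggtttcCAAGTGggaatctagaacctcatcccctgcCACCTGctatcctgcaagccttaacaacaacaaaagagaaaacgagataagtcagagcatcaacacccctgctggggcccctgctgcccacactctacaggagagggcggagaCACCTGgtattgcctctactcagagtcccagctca
The E-box matched 1 time in the Cd3d window, 1 time in the Cd3e window and 3 times in the Cd3g window, and 58.2% of the 32851 annotated windows of the same length held a match. The Ets motif matched 1 time each in the Cd3d and Cd3e windows and not in that of Cd3g, against 24.7% of all windows with a match. The Cd3e match lies in the 52 bases inside the annotated gene, and it is the only match of the 3 windows that lies wholly inside. The E-box match of Cd3e reaches into the annotated gene with its last base only. The TCF motif matched 2 times in the Cd3d window only, against 10.9% of all windows, and the Runx motif matched in none of the 3 (11.2% of all windows). None of the matches overlapped another. A match is a stretch of letters and not a measured binding site.

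Of the γδ genes, Trdc and Tcrg-V6 were highest in the T17-like cells, and Tcrg-V6 was detected in no other class. Tcrg-V6 (chromosome 13, 19190368 to 19190929) had 185 UMIs in Blimp-1 KO T17-like cells, or 1466 CPM (counts per 1000000 UMIs of the class; 1262 to 1693). It had 150 UMIs in Ctrl T17-like cells, or 888 CPM (752 to 1042). All cells outside that cluster held 0 Tcrg-V6 UMIs in both libraries. Against a floor of 3 counts, it was at least 926.5-fold higher in Blimp-1 KO and at least 449-fold higher in Ctrl T17-like cells than in NK-like cells.

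Trdc, the constant gene of the δ chain (chromosome 14, 54142851 to 54146108), was not confined to γδ T cells. It reached 182 CPM (115.5 to 273.4) in Blimp-1 KO and 124 CPM (77.0 to 190.1) in Ctrl T17-like cells. Other T-like cells held 47.0 CPM (24.3 to 82.1) in Blimp-1 KO and 13.3 CPM (4.33 to 31.1) in Ctrl. NK-like cells held 42.7 CPM (33.9 to 53.1) in the Blimp-1 KO and 44.8 CPM (34.8 to 56.8) in the Ctrl library, from 81 and 68 UMIs. T17-like cells were 4.27-fold (2.56 to 6.85) above NK-like cells in Blimp-1 KO and 2.77-fold (1.61 to 4.58) in Ctrl. The other T-like level overlapped the NK-like level in Blimp-1 KO and lay below it in Ctrl. B-like cells had no Trdc UMI in either library.

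Tcrg-V1 (chromosome 13, 19340016 to 19340454) had at most 17 UMIs in any class and library. In other T-like cells it had 17 UMIs in 7 Blimp-1 KO cells, or 66.6 CPM (38.8 to 106.6), and 4 UMIs in 2 Ctrl cells, or 10.7 CPM (2.91 to 27.3). T17-like cells held 3 Tcrg-V1 UMIs in Blimp-1 KO and 10 in Ctrl, and NK-like cells held 10 UMIs in 4 Blimp-1 KO cells and 1 UMI in Ctrl. Of the γ constant genes, Tcrg-C1 had 460 CPM in Blimp-1 KO and 314 CPM in Ctrl T17-like cells, against 2.64 CPM and 0.659 CPM in the NK-like cells of the same libraries. Tcrg-C4 held 190.1 CPM in Blimp-1 KO and 142 CPM in Ctrl T17-like cells, and Tcrg-C2 55.5 CPM in Blimp-1 KO and 53.3 CPM in Ctrl. Tcrg-C3 had 0 UMIs in the T17-like and NK-like cells of both libraries. Tcrg-C1, Tcrg-C2 and Tcrg-C3 are near-identical copies, so the split of UMIs among them is uncertain.

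**Figure D1:**
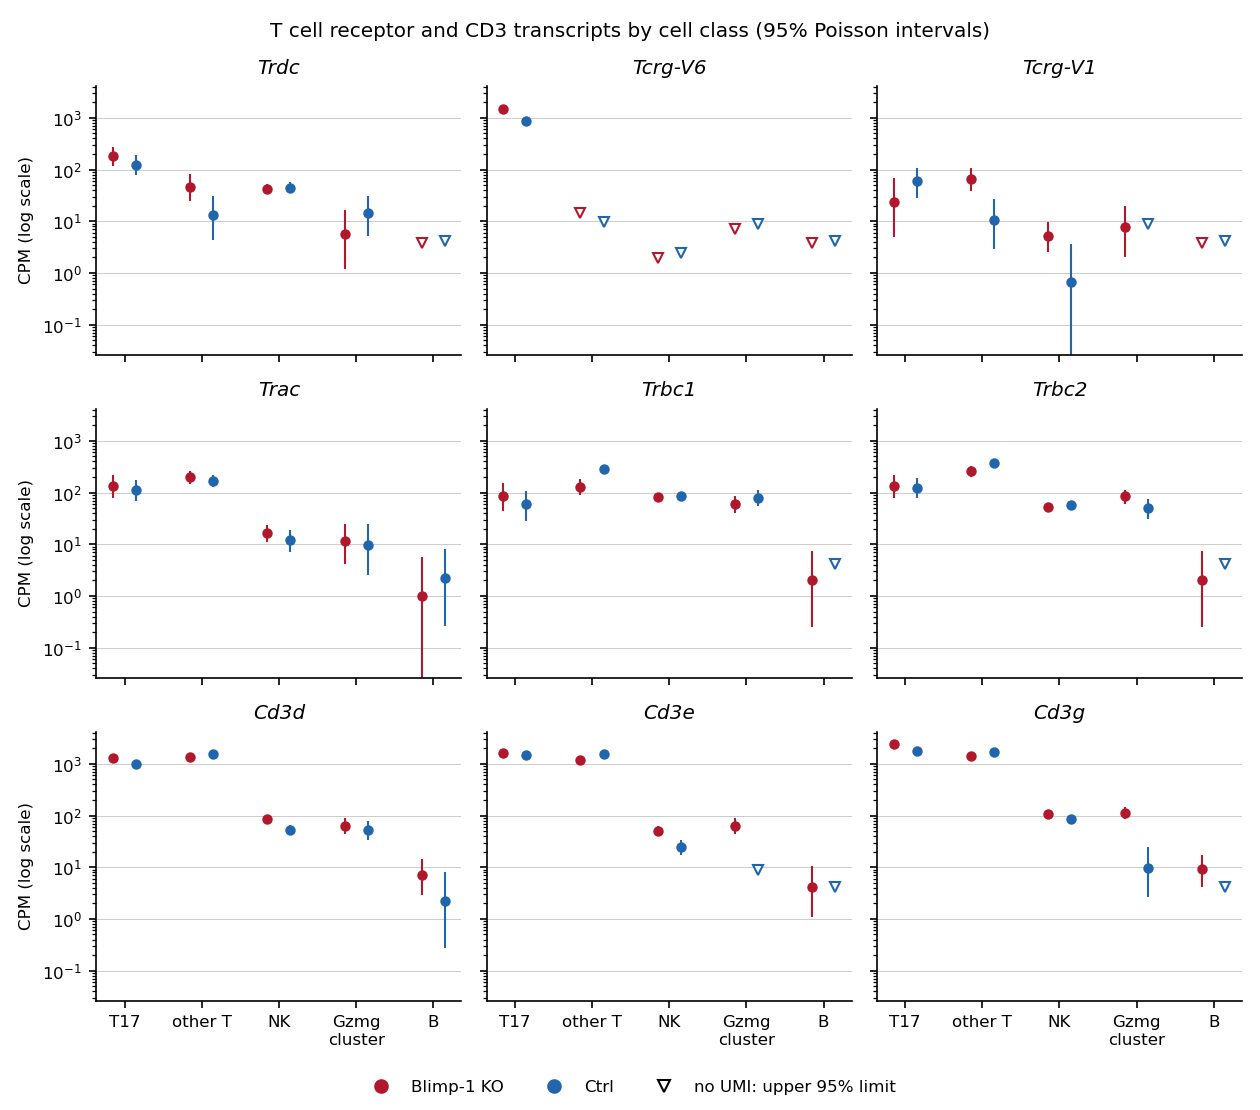
Level of each of the 9 genes as CPM of the class (log axis) in 5 classes, with Blimp-1 KO in red to the left of Ctrl in blue. Points are class sums, bars are 95% Poisson intervals, and open triangles mark the upper 95% limit where no UMI was found. Tcrg-V6 has points in T17-like cells only, and the CD3 genes stand between 1013 and 2400 CPM in both T classes and between 24.4 and 109 CPM in NK-like cells.

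The T17-like cluster held cells with γδ and cells with β chain V gene transcripts, which goes partly against reading its markers as γδ T cells alone. Tcrg-V6 UMIs were present in 24 of 36 Blimp-1 KO cells (66.7%, 49.0 to 81.4) and in 16 of 34 Ctrl cells (47.1%, 29.8 to 64.9). Every Tcrg-V6 cell in both libraries also held UMIs of Trdv4, the δ V gene known to pair with Tcrg-V6. None held a UMI of a Trav gene used by α chains alone. Trav genes shared with δ chains had 4 UMIs in Blimp-1 KO and 1 in Ctrl T17-like cells, which were not split by Tcrg-V6. A positive cell held between 1 and 17 Tcrg-V6 UMIs in Blimp-1 KO (median 7.5) and between 2 and 24 in Ctrl (median 8). Tcrg-V6 cells had Trdc in 15 Blimp-1 KO and 11 Ctrl cells, Trac in 6 Blimp-1 KO and 0 Ctrl cells, and Trbc in 12 Blimp-1 KO and 7 Ctrl cells. The β constant genes were thus read in many cells that also held a γδ V gene pair.

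The remaining 12 Blimp-1 KO and 18 Ctrl T17-like cells, with no Tcrg-V6 UMI, mostly held β chain V gene transcripts. A Trbv gene was found in 11 of the 12 Blimp-1 KO cells and in 17 of the 18 Ctrl cells without Tcrg-V6. Trdv4 was found in 0 of those Blimp-1 KO and 1 of those Ctrl cells, and Trdc in 0 Blimp-1 KO and 2 Ctrl cells. Trbv UMIs summed to 74 in these Blimp-1 KO cells (median 6 per cell) and 204 in these Ctrl cells (median 9 per cell). In the cells with Tcrg-V6 they summed to 42 in Blimp-1 KO, where 1 cell held 22, and to 4 in Ctrl, and the median was 0. Trav1, the α V gene of mouse mucosal-associated invariant T cells, was found in 1 Blimp-1 KO and 8 Ctrl cells without Tcrg-V6. γ chain transcripts were present in these cells too, with Tcrg-C1 in 6 of 12 Blimp-1 KO and 12 of 18 Ctrl cells and Tcrg-V4 in 6 Blimp-1 KO and 11 Ctrl cells.

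**Figure D2:**
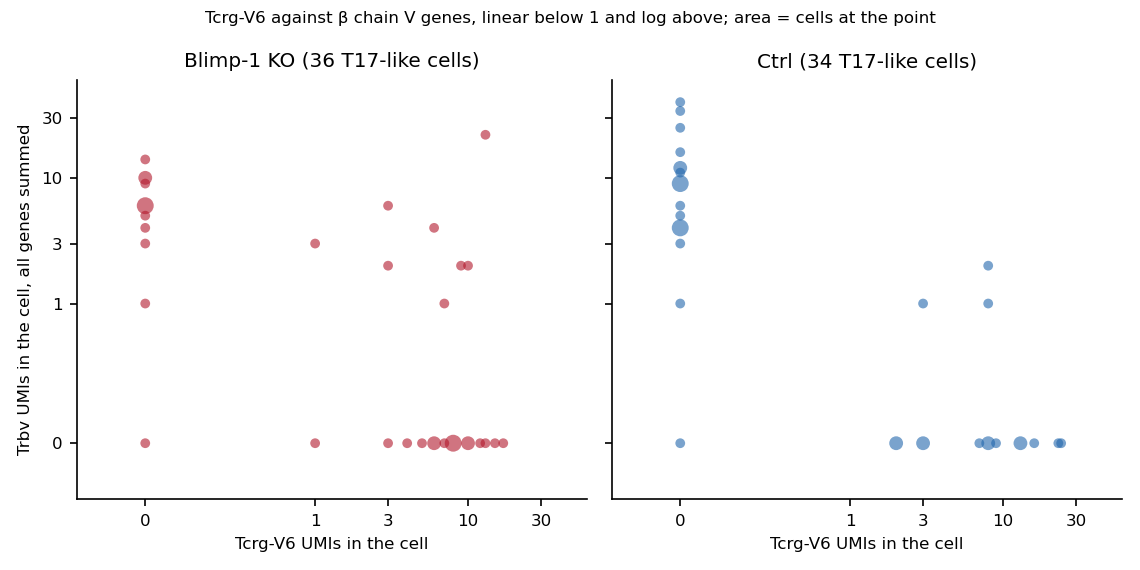
Tcrg-V6 UMIs (x) against summed Trbv UMIs (y) in each T17-like cell, in the 36 Blimp-1 KO cells on the left and the 34 Ctrl cells on the right, on axes that are linear below 1 and logarithmic above. Point area is proportional to the number of cells at the point. Most cells lie along one axis or the other, and 8 Blimp-1 KO and 3 Ctrl cells hold both.

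The 5 V genes with the most UMIs in the T17-like cells were Trdv4, Tcrg-V6, Trgv2, Trbv13-2 and Trbv13-1. Trdv4 had 316 UMIs in 24 Blimp-1 KO cells and 212 UMIs in 17 Ctrl cells. Trgv2 had 54 UMIs in Blimp-1 KO and 51 in Ctrl, and Trbv13-2 had 34 in Blimp-1 KO and 45 in Ctrl. The 14 Trbv13-1 UMIs of Blimp-1 KO came from 1 cell and the 41 of Ctrl from 2 cells, so this gene describes single cells and not the class.

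The αβ constant genes followed a different order, with the highest level in other T-like cells for each of Trac, Trbc1 and Trbc2. Trac (chromosome 14, 54220521 to 54224198) stood at 135 CPM (78.5 to 215.6) in Blimp-1 KO and 112.5 CPM (67.7 to 175.7) in Ctrl T17-like cells. Other T-like cells held 196 CPM (145.3 to 258.1) in Blimp-1 KO and 168 CPM (129.1 to 214.9) in Ctrl, which overlapped the T17-like intervals. NK-like cells held 16.4 CPM (11.1 to 23.2) in Blimp-1 KO and 11.9 CPM (7.03 to 18.8) in Ctrl. Trac was therefore above the NK-like level in both T classes, by 8.24-fold (4.28 to 15.3) in Blimp-1 KO and 9.48-fold (4.71 to 19.1) in Ctrl T17-like cells.

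Trbc1 (chromosome 6, 41538219 to 41539665) did not separate T17-like from NK-like cells. It stood at 87.1 CPM (43.5 to 155.9) in Blimp-1 KO and 59.2 CPM (28.4 to 108.9) in Ctrl T17-like cells. Other T-like cells held 129 CPM (89.0 to 181.5) in Blimp-1 KO and 285 CPM (233.8 to 344.8) in Ctrl, and NK-like cells 80.7 CPM (68.4 to 94.5) in Blimp-1 KO and 87.0 CPM (72.8 to 103.2) in Ctrl. The 3 classes overlapped in Blimp-1 KO, and other T-like cells stood apart from both others in Ctrl. The ratio of T17-like to NK-like cells was 1.08 (0.528 to 1.99) in Blimp-1 KO and 0.680 (0.319 to 1.29) in Ctrl.

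Trbc2 (chromosome 6, 41546730 to 41548181) was highest in other T-like, lower in T17-like and lowest in NK-like cells in both libraries. It stood at 135 CPM (78.5 to 215.6) in Blimp-1 KO and 124 CPM (77.0 to 190.1) in Ctrl T17-like cells. Other T-like cells held 258.5 CPM (199.9 to 328.8) in Blimp-1 KO and 373 CPM (314.0 to 440.5) in Ctrl, and NK-like cells 51.7 CPM (42.0 to 63.0) in Blimp-1 KO and 56.7 CPM (45.4 to 70.0) in Ctrl. Neighbours in that order did not overlap, except for other T-like and T17-like cells of Blimp-1 KO. Trbc1 made up 33.3% (24.2 to 43.5) of Trbc UMIs in Blimp-1 KO and 43.3% (37.0 to 49.7) in Ctrl other T-like cells. In NK-like cells the share was 61.0% (54.6 to 67.0) in Blimp-1 KO and 60.6% (53.7 to 67.1) in Ctrl, above the other T-like interval in both libraries. T17-like cells stood at 39.3% (21.5 to 59.4) in Blimp-1 KO, which overlapped the NK-like interval, and at 32.3% (16.7 to 51.4) in Ctrl, which did not. The unnamed cluster led by Gzmg stood at 41.3% (30.1 to 53.3) in Blimp-1 KO, below the NK-like interval. In Ctrl it stood at 61.1% (46.9 to 74.1). Trbc1 and Trbc2 are near-identical copies, so the authors' counting could split their reads unevenly, which was not tested.

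As a share of all T cell receptor constant UMIs, γδ genes (Trdc and Tcrg-C) made up 71.3% (63.6 to 78.3) in Blimp-1 KO and 68.2% (60.2 to 75.3) in Ctrl T17-like cells, from 157 UMIs in each. In other T-like cells the share was 18.1% (12.8 to 24.5) of 182 UMIs in Blimp-1 KO and 5.78% (3.51 to 8.87) of 329 UMIs in Ctrl. NK-like cells stood between, at 28.1% (23.7 to 32.8) of 392 UMIs in Blimp-1 KO and 27.2% (22.4 to 32.4) of 324 UMIs in Ctrl. The NK-like shares of the libraries overlapped, and the other T-like shares did not. With coarser clustering (resolution 0.5), which left 11 Blimp-1 KO and 26 Ctrl cells in the other T-like class, its share was 1.25% in Blimp-1 KO and 0.727% in Ctrl.

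In NK-like cells, V gene UMIs were few beside constant gene UMIs at the α and β loci and not at the δ locus. At the α locus the NK-like cells held 0.194 V gene UMIs per Trac UMI in Blimp-1 KO and 0.111 in Ctrl. T17-like cells held 0.235 in Blimp-1 KO, from 4 V gene UMIs, and 1.16 in Ctrl. Other T-like cells held 1.6 in Blimp-1 KO and 1.25 in Ctrl. The α ratio thus did not set NK-like apart from T17-like cells in Blimp-1 KO. V genes shared by the α and δ loci were counted at neither. They had 12 UMIs in Blimp-1 KO and 1 in Ctrl NK-like cells. At the β locus the T17-like cells held 4.14 V gene UMIs per constant gene UMI in Blimp-1 KO and 6.71 in Ctrl, and the other T-like cells 4.86 in Blimp-1 KO and 3.85 in Ctrl. NK-like cells held 0.327 in Blimp-1 KO, from 82 Trbv UMIs, and 0.183 in Ctrl, from 40 Trbv UMIs. At the γ locus the NK-like cells held 52 V gene UMIs in Blimp-1 KO, 50 of them in the 10 cells with Cd3e, and 8 in Ctrl. At the δ locus the NK-like cells held 2.79 V gene UMIs per Trdc UMI in Blimp-1 KO and 2.04 in Ctrl, with Trdv4 in 89 of 230 Blimp-1 KO and 52 of 140 Ctrl cells. No NK-like cell of either library held more than 5 Trdv4 UMIs, whereas a T17-like cell reached 53 in Blimp-1 KO and 35 in Ctrl. Each UMI is counted for 1 gene, so a rearranged transcript counts under its V gene or its constant gene.

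**Figure D3:**
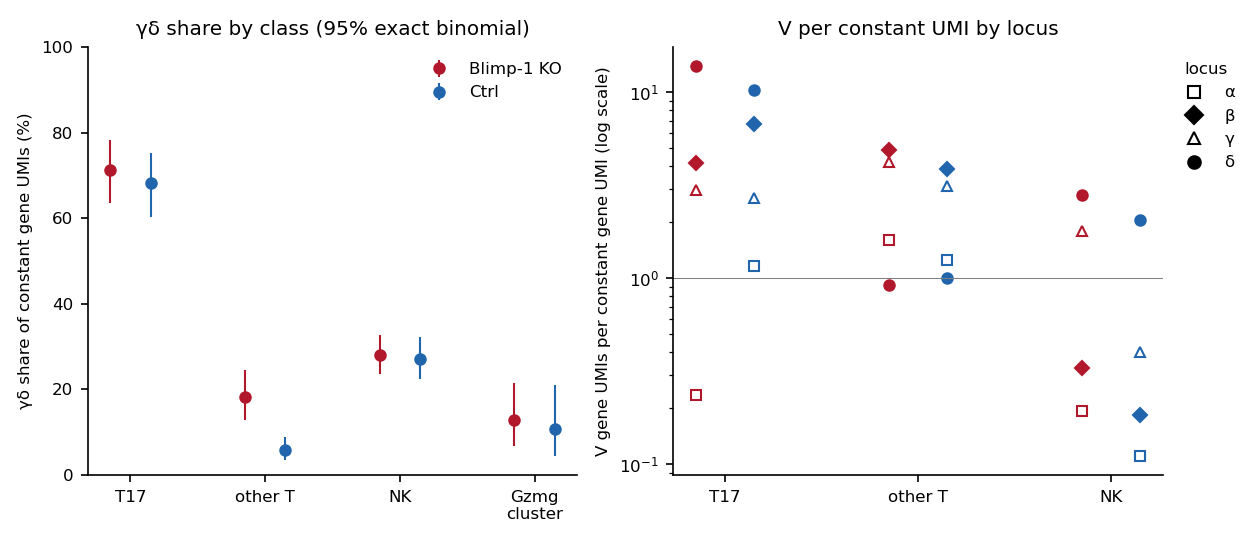
Left, γδ share of T cell receptor constant gene UMIs (%) in 4 classes, with 95% exact binomial intervals, and right, V gene UMIs per constant gene UMI (log axis) at the α, β, γ and δ loci in 3 classes. Blimp-1 KO is in red, left of Ctrl in blue. T17-like cells stand near 70% on the left, and the β marker of NK-like cells lies below 1 on the right while their δ marker lies above 1.

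The CD3 genes were high in both T classes. Cd3e, whose product CD3ε is needed for every surface T cell receptor, stood at 1608 CPM (1395 to 1845) in Blimp-1 KO and 1468 CPM (1291 to 1663) in Ctrl T17-like cells, and at 1198 CPM (1068 to 1340) in Blimp-1 KO and 1530 CPM (1408 to 1661) in Ctrl other T-like cells. NK-like cells held 51.1 CPM (41.5 to 62.4) in Blimp-1 KO and 24.4 CPM (17.2 to 33.6) in Ctrl. T17-like cells were thus 31.4-fold (24.6 to 40.5) above NK-like cells in Blimp-1 KO and 60.2-fold (42.5 to 87.5) in Ctrl. The order of the T classes differed between the libraries, with T17-like cells higher in Blimp-1 KO and overlapping intervals in Ctrl.

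Cd3d, which encodes CD3δ, stood at 1323 CPM (1130 to 1540) in Blimp-1 KO and 1013 CPM (866.4 to 1176) in Ctrl T17-like cells. Other T-like cells held 1347 CPM (1209 to 1497) in Blimp-1 KO and 1560 CPM (1436 to 1691) in Ctrl, and NK-like cells 85.4 CPM (72.8 to 99.6) in Blimp-1 KO and 52.1 CPM (41.2 to 64.9) in Ctrl. The T classes overlapped in Blimp-1 KO and not in Ctrl. Cd3g, which encodes CD3γ, stood at 2400 CPM (2138 to 2687) in Blimp-1 KO and 1782 CPM (1587 to 1995) in Ctrl T17-like cells. Other T-like cells held 1386 CPM (1246 to 1539) in Blimp-1 KO, below the T17-like interval, and 1690 CPM (1561 to 1827) in Ctrl, which overlapped it. NK-like cells held 109 CPM (94.3 to 124.5) of Cd3g in Blimp-1 KO and 85.7 CPM (71.6 to 101.8) in Ctrl. Among cycling cells, which were clustered by cell cycle genes, Cd3e stood at 206 CPM (173.6 to 243.0) from 7 of 34 Blimp-1 KO cells and 115 CPM (91.3 to 142.9) from 3 of 25 Ctrl cells.

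Within the T17-like cluster, Cd3g was higher in the cells with Tcrg-V6. Cd3g stood at 3041 CPM (2673 to 3446) in Blimp-1 KO and 2473 CPM (2116 to 2873) in Ctrl cells with Tcrg-V6. Cells without Tcrg-V6 held 1258 CPM (952.4 to 1629) in Blimp-1 KO and 1303 CPM (1089 to 1548) in Ctrl, and the intervals did not overlap in either library. Cd3e was closer, at 1792 CPM with and 1280 CPM without Tcrg-V6 in Blimp-1 KO, and at 1489 CPM with and 1454 CPM without it in Ctrl. Cd3d stood at 1397 CPM with and 1191 CPM without Tcrg-V6 in Blimp-1 KO, and at 1128 CPM with and 932.5 CPM without it in Ctrl. Median depth was 3345.5 UMIs with and 3741 UMIs without Tcrg-V6 in Blimp-1 KO cells, and 4624.5 and 5812 UMIs in the same order in Ctrl cells. This comparison was chosen after the values had been seen.

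Set against NK-like cells, 7 of the 8 genes with at least 20 UMIs were past 2-fold higher in the T17-like cells of each library, where 16.1% of all genes tested were as far higher and 10.3% as far lower in Blimp-1 KO, and 16.1% and 10.8% in Ctrl. Trbc1 was the exception in both. The median log2 ratio of the members was 3.50 in Blimp-1 KO and 3.76 in Ctrl, against 0.21 and 0.20 over all genes tested in the same libraries, with genes at 0 on one side taken at their bound. Other T-like cells were past 2-fold above NK-like cells for 6 of 8 genes in Blimp-1 KO (7.97% of all genes higher, 9.26% lower) and for 6 of 7 in Ctrl (7.62% higher), with Trdc past 2-fold lower in Ctrl at 0.297 (0.0936 to 0.729; 9.09% of all genes lower). The median log2 ratio was 3.62 in Blimp-1 KO and 3.82 in Ctrl, against 0.04 and 0.02 over all genes. Of the T17-like over other T-like contrast, Tcrg-V6 and Trdc were past 2-fold higher in both libraries (12.5% of all genes higher in Blimp-1 KO and 12.5% in Ctrl). Lower were Tcrg-V1 in Blimp-1 KO (11.1% of all genes lower), and Trbc1 and Trbc2 in Ctrl (10.2% lower), at 0.207 and 0.333. The Tcrg-V1 ratio rested on 3 and 17 UMIs, at 0.357 (0.0670 to 1.23), and its interval reached past 1. In Ctrl it stood the other way round, with 10 UMIs and 59.2 CPM (28.4 to 108.9) in T17-like cells against 4 UMIs and 10.7 CPM (2.91 to 27.3) in other T-like cells, but it was under 20 UMIs there and was not counted.

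The other T-like cells were not uniform, and finer clustering divided them into a group led by Klra6 and Trat1 (23 Blimp-1 KO and 9 Ctrl cells) and a group led by Penk and Cd8a (11 Blimp-1 KO and 26 Ctrl cells). All 17 Blimp-1 KO and 4 Ctrl Tcrg-V1 UMIs lay in the Klra6 group, and so did all 12 Blimp-1 KO and 5 Ctrl Trdc UMIs. That group held 32 γδ and 70 αβ constant UMIs in Blimp-1 KO and 17 γδ and 37 αβ in Ctrl. The Penk group held 1 γδ and 79 αβ constant UMIs in Blimp-1 KO and 2 γδ and 273 αβ in Ctrl. A Trbv gene was found in 17 of 23 Blimp-1 KO and 7 of 9 Ctrl cells of the Klra6 group, and in 11 of 11 Blimp-1 KO and 26 of 26 Ctrl cells of the Penk group. The 5 V genes with the most UMIs in other T-like cells were Trbv17, Trbv26, Trbv13-2, Trbv13-3 and Trgv2. Trbv17 had 137 UMIs in 4 Blimp-1 KO cells and 472 UMIs in 10 Ctrl cells, and Trbv26 had 6 UMIs in 1 Blimp-1 KO cell and 164 in 6 Ctrl cells.

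NK-like cells often held β constant transcripts. At least 1 Trbc or CD3 UMI was found in 134 of 230 Blimp-1 KO cells (58.3%, 51.6 to 64.7) and in 92 of 140 Ctrl cells (65.7%, 57.2 to 73.5), with median depths of 6625 and 7912 UMIs. Read at a common depth of 1500 UMIs per cell, the expected share was 24.9% (19.4 to 31.1) of 227 Blimp-1 KO cells and 23.2% (16.5 to 31.1) of 140 Ctrl cells, with 3 shallower Blimp-1 KO cells left out. The libraries overlapped on both readings. The share was 3.96% (1.99 to 6.97) of 278 Blimp-1 KO and 0.870% (0.105 to 3.11) of 230 Ctrl B-like cells, whose median depths were 2712.5 and 3089.5 UMIs. At 1500 UMIs it was 2.68% in Blimp-1 KO and 0.214% in Ctrl B-like cells. Macrophage-like cells, at median depths of 6991 UMIs in Blimp-1 KO and 8578 UMIs in Ctrl, held such a UMI in 0 of 45 Blimp-1 KO cells (a floor of 3 counts is 6.67%, and the exact binomial upper limit is 7.87%) and in 1 of 97 Ctrl cells. The NK-like share therefore stood above that of both classes that should lack these genes. In the unnamed cluster led by Gzmg, left out here, the share was 46.8% of 77 Blimp-1 KO and 88.9% of 18 Ctrl cells. At 1500 UMIs it was 28.2% of 58 Blimp-1 KO and 26.05% of 18 Ctrl cells of that cluster.

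Most of the share came from Trbc. A Trbc UMI was found in 121 Blimp-1 KO NK-like cells (52.6%, 45.9 to 59.2) and in 86 Ctrl NK-like cells (61.4%, 52.8 to 69.5). At 1500 UMIs these shares were 18.0% (13.2 to 23.6) in Blimp-1 KO and 18.1% (12.1 to 25.5) in Ctrl, where T17-like cells stood at 27.1% in Blimp-1 KO and 24.6% in Ctrl and other T-like cells at 41.2% and 59.7%. A UMI of any CD3 gene was found in 39 Blimp-1 KO cells (16.96%, 12.3 to 22.4) and 24 Ctrl cells (17.1%, 11.3 to 24.4), or 9.41% (5.95 to 13.98) and 6.47% (3.01 to 11.9) at 1500 UMIs. For T17-like cells the share with Trbc or CD3 at 1500 UMIs was 99.6% in Blimp-1 KO and 99.8% in Ctrl. Trdc was present in 51 Blimp-1 KO (22.2%) and 39 Ctrl (27.9%) NK-like cells, and Trac in 24 Blimp-1 KO (10.4%) and 14 Ctrl (10.0%) cells. Both Trdc and Trac were found in 8 Blimp-1 KO and 6 Ctrl NK-like cells.

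Within the NK-like class, the share from all UMIs was highest in the deepest cluster. The cluster led by Xcl1 and Gzmc had Trbc or CD3 UMIs in 60 of 84 Blimp-1 KO cells (71.4%) and 42 of 45 Ctrl cells (93.3%), at median depths of 12615 and 18663 UMIs. The cluster led by Ccl5 and Klra4 had them in 56 of 110 Blimp-1 KO cells (50.9%) and 41 of 71 Ctrl cells (57.7%), at 4687.5 and 6577 UMIs. The cluster led by Ifi44 and Gzmb had them in 18 of 36 Blimp-1 KO cells and 9 of 24 Ctrl cells (37.5%), at 5253.5 and 6921 UMIs. At 1500 UMIs the shares were 23.4%, 25.01% and 28.3% in Blimp-1 KO and 32.5%, 19.9% and 15.6% in Ctrl, in the order of clusters just given, and their intervals overlapped within each library.

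**Figure D4:**
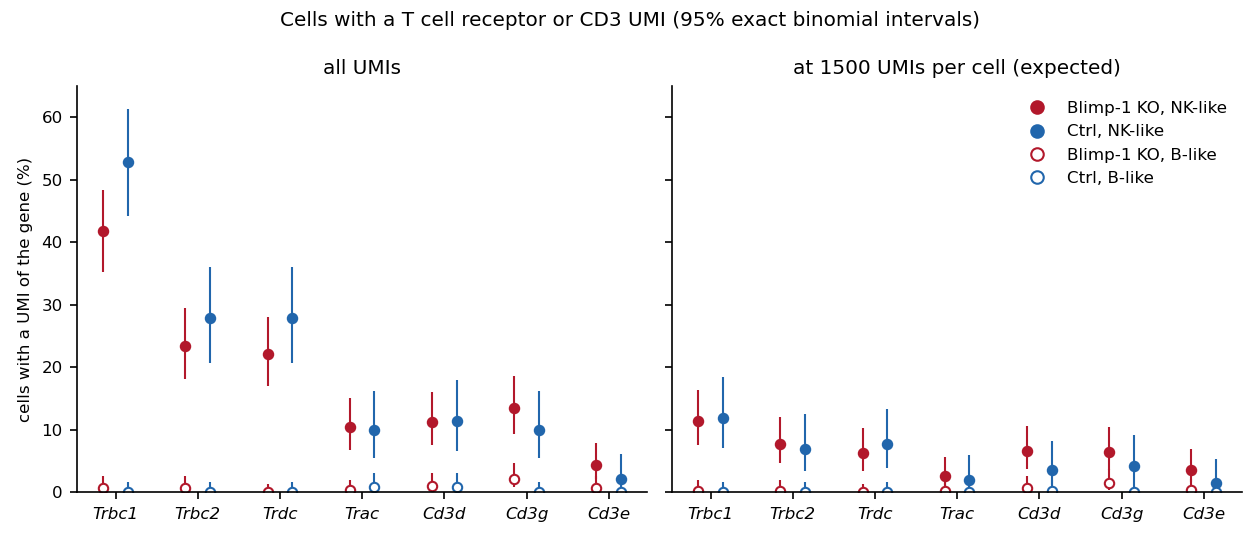
Share of cells with a UMI of each of 7 genes, from all UMIs (left) and at 1500 UMIs per cell (right), with 95% exact binomial intervals. Blimp-1 KO is in red, left of Ctrl in blue, with filled points for NK-like and open points for B-like cells. Among NK-like cells, filled Trbc1 points stand highest, and in the left panel filled Cd3e points stand lowest, at 4.35% in Blimp-1 KO and 2.14% in Ctrl. In the right panel the Blimp-1 KO Cd3e point, at 3.65%, stands above that of Trac, at 2.69%.

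CD3 transcripts of the NK-like class were concentrated in a few cells. Cd3e was found in 10 of 230 Blimp-1 KO and 3 of 140 Ctrl cells, and all of these also held Cd3d and Cd3g. They supplied 361 CD3 UMIs, or 77.6% of the class total, in Blimp-1 KO and 152, or 61.8%, in Ctrl. A Cd3e cell held between 5 and 80 CD3 UMIs in Blimp-1 KO (median 33.5) and between 19 and 93 in Ctrl (median 40). All 82 Blimp-1 KO and 40 Ctrl Trbv UMIs of the class lay in 6 and 2 of these cells, and no NK-like cell without Cd3e held a Trbv UMI in either library. Ncr1, an activating receptor that marks NK cells, was found in 8 of the 10 Blimp-1 KO and 3 of the 3 Ctrl Cd3e cells. These held 27 and 11 Ncr1 UMIs, at median depths of 9549 and 12544 UMIs. Without Cd3e, 192 of 220 Blimp-1 KO and 126 of 137 Ctrl cells held Ncr1. Their Ncr1 UMIs numbered 1101 in Blimp-1 KO and 1015 in Ctrl, at median depths of 6515 and 7853 UMIs.

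Trbc was also found outside those cells, with less CD3. Cd3d or Cd3g without Cd3e was found in 29 Blimp-1 KO and 21 Ctrl cells. These cells held a median of 1 CD3 UMI in both libraries and up to 13 in Blimp-1 KO and 28 in Ctrl, and supplied 22.4% of the class's CD3 UMIs in Blimp-1 KO and 38.2% in Ctrl. Among the cells without Cd3e, a Trbc UMI was found in 114 of 220 Blimp-1 KO cells (51.8%) and 84 of 137 Ctrl cells (61.3%). Of the cells with no CD3 UMI at all, 95 of 191 in Blimp-1 KO (49.7%) and 68 of 116 in Ctrl (58.6%) held Trbc, and 40 in Blimp-1 KO and 30 in Ctrl held Trdc. The β constant transcripts of NK-like cells were thus seen without Trbv UMIs and without Cd3e UMIs in most of the cells that held them. Besides Trbv, the Cd3e cells held γ V gene UMIs in 7 Blimp-1 KO and 2 Ctrl cells. UMIs of Trav genes not shared with the δ locus were in 2 Blimp-1 KO cells and 1 Ctrl cell. The shared Trav genes, left out of that count, had 12 UMIs in Blimp-1 KO and 1 in Ctrl over the whole class. Cd8a had 15 UMIs in 1 of the 10 Blimp-1 KO cells and none in the Ctrl cells.

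**Figure D5:**
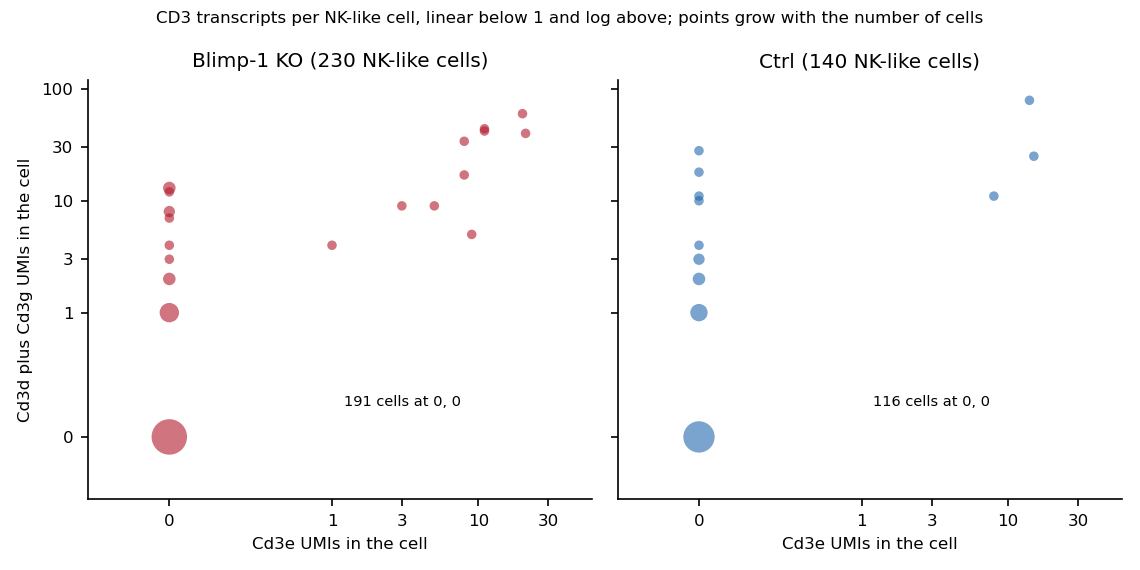
Cd3e UMIs (x) against Cd3d plus Cd3g UMIs (y) in each NK-like cell, in the 230 Blimp-1 KO cells on the left and the 140 Ctrl cells on the right, on axes that are linear below 1 and logarithmic above. Point size grows with the number of cells at the point. The 191 Blimp-1 KO and 116 Ctrl cells at the origin hold no CD3 UMI, and the 10 Blimp-1 KO and 3 Ctrl cells right of 0 hold Cd3e together with the other CD3 genes.

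Between genotypes, the T17-like cells held no member past 2-fold, with 0 of 8 tested against 7.54% of all 2387 genes tested (2.93% higher and 4.61% lower). Tcrg-V6 came closest, at 1.65-fold (1.32 to 2.06) higher in Blimp-1 KO, where 24 of 36 cells held it against 16 of 34 in Ctrl. Cd3g was 1.35-fold (1.15 to 1.59) and Cd3d 1.31-fold (1.05 to 1.63) higher in Blimp-1 KO. Cd3e stood at a ratio of 1.09 (0.905 to 1.32) and Trdc at 1.46 (0.775 to 2.78), both with intervals that included 1. Among cells with a Tcrg-V6 UMI, that gene stood at 2287 CPM (1969 to 2641) in Blimp-1 KO. It stood at 2169 CPM (1836 to 2545) in such Ctrl cells, and the intervals overlapped. The part that the makeup of the cluster had in the genotype ratios of this class was not tested. The members' median log2 ratio was 0.41, against -0.03 over all genes tested.

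In other T-like cells 2 of 7 genes were past 2-fold, against 9.34% of all 4111 genes (3.99% higher and 5.35% lower). Tcrg-V1 was 6.24-fold higher (2.04 to 25.5), from 17 UMIs in Blimp-1 KO and 4 in Ctrl, and Trbc1 stood at 0.453 (0.297 to 0.675) of the Ctrl level. Without the cell with the most UMIs in each library, Tcrg-V1 fell under 20 UMIs and was not tested. Trdc, with 12 Blimp-1 KO and 5 Ctrl UMIs, was under 20 UMIs and stood at a ratio of 3.53 (1.16 to 12.8). Trbc2 stood at 0.692, Cd3e at 0.783, Cd3g at 0.820 and Cd3d at 0.864 of Ctrl, and Trac at 1.17. The Klra6 group made up 23 of 34 Blimp-1 KO and 9 of 35 Ctrl cells of this class. Within it Tcrg-V1 stood at 117 CPM (68.1 to 187.2) in Blimp-1 KO and 60.3 CPM (16.4 to 154.5) in Ctrl, and Trdc at 82.5 CPM (42.6 to 144.2) and 75.4 CPM (24.5 to 176.0), with overlapping intervals for both. Trbc1 stood at 89.4 CPM (47.6 to 152.9) in Blimp-1 KO and 90.5 CPM (33.2 to 197.0) in Ctrl cells of the Klra6 group, and at 182 CPM (111.1 to 280.8) and 327 CPM (266.4 to 397.5) in the Penk group, which also overlapped. The B cell gene Cd79a stood at 180.1 CPM in Blimp-1 KO and 69.3 CPM in Ctrl cells of the class. Without cells that held a B cell receptor contig, the ratios were 6.88 for Tcrg-V1 and 0.454 for Trbc1. The members' median log2 ratio was -0.29, against 0.00 over all genes tested.

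In NK-like cells 1 of 7 genes was past 2-fold, against 2.83% of all 8229 genes (1.42% higher and 1.41% lower). Cd3e was 2.10-fold (1.42 to 3.15) higher in Blimp-1 KO, from 97 UMIs in 10 Blimp-1 KO cells and 37 UMIs in 3 Ctrl cells. It was under 2-fold, at 1.79 (1.06 to 3.12), when the T cell receptor and CD3 genes helped place the cells, and at 1.57 (1.04 to 2.40) with no barcode filter. Cd3d was 1.64-fold (1.25 to 2.17) higher, but its direction depended on the clustering. It stood at 0.900 (0.674 to 1.201) with the T cell receptor and CD3 genes kept, at 1.02 (0.775 to 1.34) with no barcode filter, and at 2.43 (1.73 to 3.47) without the cell with the most Cd3d UMIs in each library. Cd3g stood at a ratio of 1.27. The constant genes were not past 2-fold, with Trbc1 at 0.927, Trbc2 at 0.911, Trdc at 0.953 and Trac at 1.38. The members' median log2 ratio was 0.34, against 0.00 over all genes tested.

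In the cluster led by Gzmg, 2 of 5 genes were past 2-fold, against 20.6% of all 5244 genes (18.3% higher and 2.27% lower). Cd3e had 33 UMIs in 10 Blimp-1 KO cells and 0 in Ctrl cells, at least 8.80-fold higher against a floor of 3 counts over the Ctrl class. Cd3g had 59 UMIs in Blimp-1 KO and 4 in Ctrl, an 11.8-fold (4.37 to 44.7) difference. The 10 Cd3e cells supplied 86.4% of the CD3 UMIs of the Blimp-1 KO cluster, 6 of them held Trbv UMIs (68 in all), and Ncr1 was found in 3 of them, against 60 of the 67 Blimp-1 KO cells without Cd3e. Trbc2 stood at a ratio of 1.68 and Trbc1 at 0.751. Cd3d stood at 1.2, but 21 of its 22 Ctrl UMIs came from 1 cell, and without the cell with the most UMIs in each library the ratio was 18.4 (2.998 to 756). Finer clustering (resolution 2) placed most cells of the libraries apart, with 54 Blimp-1 KO and 3 Ctrl cells in a cluster led by Sema6d, Tnfsf10 and Kit, at median depths of 1998.5 and 2289 UMIs. The other 23 Blimp-1 KO and 15 Ctrl cells lay in a cluster led by Gzmg, Gzmf and Gzmd, at 14019 and 27548 UMIs. All 10 Cd3e cells of Blimp-1 KO lay in the Sema6d cluster, which held only 3 Ctrl cells. In the finer Gzmg cluster Cd3e had no UMI in either library, and Cd3g had 12 UMIs in 3 Blimp-1 KO cells and 4 UMIs in 1 Ctrl cell.

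The signalling chains that sit beside CD3 were read from 4 genes. Cd247 (ζ) stood at 610 CPM in Blimp-1 KO and 326 CPM in Ctrl T17-like cells, at 188 CPM and 216 CPM in other T-like cells, and at 111 CPM and 87.0 CPM in NK-like cells of the same libraries. Among these 3 classes, Fcer1g, the Fc receptor γ chain, and Tyrobp, the adaptor DAP12, were highest in NK-like cells. Fcer1g stood at 7.92 CPM in Blimp-1 KO and 0 CPM in Ctrl T17-like cells, against 2817 CPM and 2668 CPM in NK-like cells. Tyrobp stood at 3225 CPM in Blimp-1 KO and 2966 CPM in Ctrl NK-like cells. Hcst, the adaptor DAP10, stood between 385.5 and 705 CPM in all 3 classes. These genes helped form the clusters, so their class differences describe the clusters. In other T-like cells, Fcer1g was 2.20-fold and Tyrobp 2.15-fold higher in Blimp-1 KO, the 2 of 4 chain genes past 2-fold in that class, where 3.99% of all genes tested were as far higher. Within the Klra6 group Fcer1g stood at 1224 CPM in Blimp-1 KO and 1358 CPM in Ctrl, and Tyrobp at 392 CPM and 573 CPM, with overlapping intervals for both. The Penk group held 0 Fcer1g UMIs in Blimp-1 KO and 29 in Ctrl, and 0 and 1 Tyrobp UMIs. None of the chain genes tested was past 2-fold between genotypes in T17-like cells (2 tested), NK-like cells (4 tested) or the cluster led by Gzmg (4 tested).

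Of 18 proximal signalling genes, 11 were tested between genotypes in T17-like cells, with 0 higher and 1 lower, where 2.93% of all genes tested were higher and 4.61% lower. That gene was Lck, the kinase that phosphorylates CD3 and ζ, at 174 CPM in Blimp-1 KO and 385 CPM in Ctrl, a ratio of 0.453 (0.266 to 0.744). In other T-like cells 0 of 14 were higher and 1 lower (Ubash3a, a negative regulator of receptor signalling, at 0.449), against 3.99% and 5.35% of all genes. In NK-like cells 0 of 15 were past 2-fold in either direction, against 2.83% of all genes. Lat, the adaptor phosphorylated by Zap70, stood at 871.5 CPM in Blimp-1 KO and 959 CPM in Ctrl T17-like cells, against 69.1 CPM and 55.4 CPM in NK-like cells. Zap70 itself stood at 372 CPM in Blimp-1 KO and 385 CPM in Ctrl T17-like cells, and at 116.5 CPM and 113 CPM in NK-like cells. Skap1, an adaptor of integrin activation, stood between 280.0 and 414.5 CPM in all 3 classes.

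Of 8 coreceptor and costimulation genes, 7 were tested between genotypes in other T-like cells, with 0 higher and 2 lower, against 3.99% and 5.35% of all genes tested. Cd8a stood at 768 CPM in Blimp-1 KO and 1562 CPM in Ctrl, a ratio of 0.491 (0.416 to 0.579), and Cd8b1 at 337 CPM and 1227 CPM, a ratio of 0.275 (0.215 to 0.346). They encode the chains of the CD8 coreceptor. The Penk group, led by Cd8a, made up 11 of 34 Blimp-1 KO and 26 of 35 Ctrl cells of the class. Within it Cd8a stood at 1537 CPM (1314 to 1787) in Blimp-1 KO and 1778 CPM (1632 to 1933) in Ctrl, with overlapping intervals, and Cd8b1 at 664 CPM (520.3 to 834.5) and 1445 CPM (1314 to 1585), without overlap. In the Klra6 group Cd8a stood at 186 CPM (122.4 to 270.2) in Blimp-1 KO and 558 CPM (393.0 to 769.3) in Ctrl, where 1 of 9 cells held 20 of the 37 UMIs. T17-like cells held no Cd8a UMI in either library. Cd2 and Thy1, the others named in this list, were not past 2-fold in that class, at 505 CPM in Blimp-1 KO and 344 CPM in Ctrl for Cd2, and at 924 CPM and 1373 CPM for Thy1. Of 15 lineage transcription factor genes, 9 were tested there, with 2 higher and 0 lower, against the same shares of all genes. They were Id3, an inhibitor of E proteins, at 129 CPM in Blimp-1 KO and 26.7 CPM in Ctrl, a ratio of 4.85 (2.33 to 11.0), and Bcl11b, a T lineage factor, at a ratio of 2.06 (0.849 to 5.17). Within the Klra6 group Id3 stood at 227 CPM (156.3 to 318.8) in Blimp-1 KO and 90.5 CPM (33.2 to 197.0) in Ctrl, and Bcl11b had 10 UMIs in Blimp-1 KO and 1 in Ctrl. In T17-like and NK-like cells 0 of 5 and 0 of 10 factors were past 2-fold, against 7.54% and 2.83% of all genes. Eomes, an NK cell factor, stood at 199 CPM in Blimp-1 KO and 198.5 CPM in Ctrl NK-like cells. Id2, another inhibitor of E proteins, stood at 963 CPM in Blimp-1 KO and 756 CPM in Ctrl NK-like cells, Runx3 at 162 CPM and 150.3 CPM, and Tbx21, which encodes T-bet, at 133 CPM and 91.0 CPM. In NK-like cells 1 of 4 coreceptor genes was past 2-fold, Cd8b1, with 22 UMIs in Blimp-1 KO and 0 in Ctrl (1.42% of all genes higher). Cd8a had 15 UMIs in 1 Blimp-1 KO NK-like cell with Cd3e and 0 in those without Cd3e. Whether the Cd8b1 UMIs also came from a few cells was not tested, so the ratio need not describe the class. In the cluster led by Gzmg, Syk, Cd8a, Cd2 and Lef1 were the list genes past 2-fold, all higher in Blimp-1 KO, where 18.3% of all genes tested were higher.

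The genes most like each member were found by Pearson correlation of log2(CPM + 10) over 20 class and library sums among 9852 genes. The points share libraries and the genes helped place the cells, so the correlations are descriptions. Tcrg-V6 was closest to Cd163l1 and Il17a (r = 1.0 each). It had no UMI outside T17-like cells, so any gene high in that class alone must correlate with it. Trdc was closest to Cd247 (r = 0.93), Apol7e and Gm29243 (r = 0.91 each). Trac was closest to Pdcd1, Zdhhc2 and Tox (r = 0.95 each), Trbc1 to Thy1, Tcf7 and Lck, and Trbc2 to Zap70, Tcf7 and Cd96 (r = 0.96 each). Tox came first for Cd3d (r = 0.96), Cd3e (r = 0.97) and Cd3g (r = 0.97). Cd247 was also among the closest for Cd3d (r = 0.95) and Cd3g (r = 0.97), and Tesc and Pdcd1 were for Cd3e. Tcrg-V1 had weaker best matches, with Gbp10 and Snai3 at r = 0.88 and Icos at r = 0.87.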

How the data were processed

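The members and gene lists were chosen with earlier results of these data known. The deposited values are UMI counts for each gene in each barcode. Cell Ranger 6.0.0 made them, per the file headers. The submitters' processing notes name GRCm38 (mm10) as the build. The deposited B cell receptor tables, made by the authors, were used for the presence of a contig and for 2 heavy chains in a barcode. The UMI counts of the contigs were not used. Removal of barcodes below 200 genes or above 10% mitochondrial UMIs took out some of each library (23 Blimp-1 KO, 11 Ctrl). Scrublet in Scanpy 1.11.5 marked 5 Blimp-1 KO and 1 Ctrl barcodes as doublets, and 6 Blimp-1 KO barcodes with 2 heavy chains were also removed. That left 863 Blimp-1 KO and 804 Ctrl cells. Scrublet marked so few barcodes that it cannot be taken to have removed doublets.

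Each cell was scaled to 10000 counts before the log. Leiden clustering (igraph 0.11.9, resolution 1) used 2000 variable genes, 30 components and 15 neighbours, without immunoglobulin, CD3 or any of 268 T cell receptor genes and without batch correction. A cluster was named from 16 marker lists where the best list had a mean log2 level of at least 1 over the other cells, at least 3 markers detected in 10% of cells, and a marker among the 25 leading genes. No other list could have more genes among the 10 leading genes than the best list. A cluster far below its library's median depth, with no marker of the best list among those 10 genes, also stayed unnamed. Together this left 3 of 17 clusters unnamed, and a difference from the study's own cell types may come from these rebuilt names. Named genes were all members, the other receptor constant genes, the 5 V genes with the most UMIs in each T class, the 4 list genes with the most UMIs, list genes past 2-fold where counted, and the 3 genes most like each member. Values of some genes named by these rules are not reported here.

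UMIs were summed per class and library as CPM. Intervals were exact Poisson for a CPM, Clopper-Pearson for a share and exact conditional binomial for a ratio of CPM values, computed with SciPy 1.17.1 at 95%. Ratios were counted as past 2-fold at 2 or 0.5, among genes with at least 20 UMIs over both sides. A side at 0 was set to a floor of 3 counts and counted only in the direction its bound allows. The share at 1500 UMIs is the exact expected share under random thinning of each cell. PCR copies were collapsed to UMIs by the authors' counting. The ratio intervals, the 2-fold count and the thinning were tested on simulated counts, and the other steps were not. The simulated class sums did not model UMIs that gather in a few cells, so the intervals are not checked for such genes. Positions and promoter windows came from RefSeq on GRCm38.p6. Alternatives were other clustering resolutions, T cell receptor and CD3 genes kept, no barcode filter, no doublet removal, other thinning depths and UMI minimums, another scaling, leaving out the top cell, and, chosen after seeing the data, leaving out cells with a B cell receptor contig.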

Additional observations from a re-analysis of the deposited data

Results flagged for a closer look

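B cell receptor contigs, which come from the companion V(D)J libraries and lie outside the expression measurement, were found in 4 of 34 Blimp-1 KO other T-like cells (11.8%, 3.30 to 27.4), against 0 of 35 Ctrl other T-like cells. The signal is listed because it appeared outside the expression measurement. The exact binomial upper limit for 0 of 35 cells is 10.0%, so the intervals of the libraries overlapped. The contigs were otherwise used to leave out cells, as described. T17-like cells held none in either library. Cd79a, a B cell receptor signalling gene, had UMIs in 5 Blimp-1 KO and 2 Ctrl other T-like cells. The part of doublets in this was not tested.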

How the results depend on the processing

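No paired analysis was possible because each genotype has 1 library and the labels give no replicate numbers. The share of NK-like cells with a Trbc or CD3 UMI depends on depth and on the UMI minimum. It was 19.05% in Blimp-1 KO at 1000 UMIs, 38.5% in Blimp-1 KO and 38.4% in Ctrl at 3000 UMIs, and 8.97% in Blimp-1 KO and 5.79% in Ctrl where 2 UMIs were asked for. Before thinning, asking for 2 UMIs gave 35.2% in Blimp-1 KO and 42.1% in Ctrl.

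The γδ share of constant UMIs in other T-like cells was 24.8% in Blimp-1 KO with T cell receptor and CD3 genes kept in the clustering. At resolution 0.5 it was 1.25% in Blimp-1 KO and 0.727% in Ctrl, where this class shrank to 11 Blimp-1 KO and 26 Ctrl cells. The count of members past 2-fold in other T-like cells was 0 at resolution 0.5, and 1 with no barcode filter, without the top cell and at 50 UMIs, against 2. In NK-like cells it was 0 with the T cell receptor and CD3 genes kept and with no barcode filter, and 2 without the top cell, against 1. In the cluster led by Gzmg it was 1 at resolution 2, where that cluster was the 23 Blimp-1 KO and 15 Ctrl cells led by Gzmg, Gzmf and Gzmd, and 1 at 50 UMIs, against 2. Leaving out cells with a B cell receptor contig, an alternative chosen after seeing the data, moved none of these values outside its interval. No ratio past 2-fold turned to the other side of 1 under the alternatives that gave it a value. Below 2-fold, Cd3d did so in NK-like cells, as given above, and in the cluster led by Gzmg, where it was 0.0484 at resolution 2 and 24.0 with the T cell receptor and CD3 genes kept. Depth limits Tcrg-V1 and Trdc in other T-like cells, which rest on at most 17 UMIs in a library.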
